A study of Danio rerio with 9 samples.

Results

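Genes of the red cell lineage were followed in 3 heart tissues of zebrafish larvae: embryonic alpha globins (hbae1.1, hbae3), embryonic beta globins (hbbe1.1, hbbe2, hbbe3), the first enzyme of erythroid heme synthesis (alas2), the anion exchanger of the red cell membrane (slc4a1a) and the transcription factor gata1a. Members were the rows of the count table whose zebrafish symbol, ignoring case, is one of these 8. Symbols were found for 5 of the 8 among 32520 genes: hbae1.1 (ENSDARG00000089475), hbae3 (ENSDARG00000079305), hbbe3 (ENSDARG00000038147), alas2 (ENSDARG00000038643) and gata1a (ENSDARG00000013477). All 5 passed the filter on low counts, which left 17003 genes to test. No row carries the symbol hbbe1.1 or hbbe2, but 7 rows carry the human-style symbol HBE1, and which of them is hbbe1.1 or hbbe2 could not be read from the tables used here. The symbol slc4a1a has no row either, and 2 rows carry the symbol SLC4A1. The HBE1 and SLC4A1 rows are described beside the members and enter no count of members.

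The groups were 4 libraries of the proepicardium, the cell cluster that supplies the outer layer of the heart, 3 of the heart tube and 2 of the dorsal pericardium, the wall of the cavity around the heart. All came from larvae of strain AB and genotype epi:eGFP;myl7:mRFP at 60 hours post fertilisation (hpf), so every group carries both reporters. Each tissue was dissected by hand, and a library pools at least 10 organs. RNA of the lysed organs was turned into cDNA and amplified with a SMARTer Ultra Low Input kit. Nothing states that blood was removed, and a pool is the unit of replication, so the p-values measure the spread between pools. Counts of near-identical copies, a common feature of globin genes, may have been divided between rows or dropped by the counting. This makes single globin rows, and sums over them, uncertain.

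Embryonic red cells of the zebrafish carry hemoglobin built from alpha and beta chains, and the heme at its centre is made in the mitochondrion by a pathway that alas2 opens. GATA1 proteins switch on globin and heme genes in the lineage. At this stage blood already circulates through the heart, and these transcripts are read here as a measure of red cells in each dissected tissue. The order of genes in the RefSeq table of assembly GRCz12tu, used here for names and neighbours alone, places hbbe1.1, hbae1.1 and hbae3 in a cluster of 11 globin genes that also holds the adult genes. In the same table hbbe3 and hbbe2 lie between hbae4 and hbae5, in a separate cluster of 4 genes.

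Libraries held 8882853 to 19397355 gene counts, and a gene with 0 counts may still have up to 3 counts, or 0.150 to 0.331 CPM, that is counts put on a shared library scale through TMM factors. The summed level of 8 cardiomyocyte genes was 132 to 550 CPM in proepicardial tissue, 45933 to 62218 CPM in heart tubes and 36.9 to 90.3 CPM in pericardial tissue, with none of the 8 at 0 in any tissue as a whole. Proepicardium libraries 3 and 4 stood apart from libraries 1 and 2 in the share of counts on genes with MT- symbols, which was 21.0% and 20.8% against 7.96% and 9.70%. Heart tube libraries held 15.6%, 13.3% and 19.5% of such counts and pericardium libraries 6.81% and 8.18%.

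Every matched member was highest on average in heart tubes, intermediate in proepicardial tissue and lowest in pericardial tissue. The alpha globin gene hbae1.1 had 169, 95.2, 453 and 306 CPM in proepicardium libraries 1 to 4, 784, 516 and 237 CPM in heart tube libraries 1 to 3, and 29.3 and 47.2 CPM in pericardial tissue. Proepicardium and heart tube overlapped, and both pericardium libraries lay below all 7 others. The second alpha globin gene, hbae3, had 531, 343, 1771 and 1708 CPM in proepicardial tissue, 4417, 1414 and 804 CPM in heart tubes, and 159 and 283 CPM in pericardial tissue. Heart tube library 1 alone was above the proepicardium libraries for this gene, and the pericardium was again below every other library.

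The beta globin gene hbbe3 had 53.5, 15.1, 90.2 and 103 CPM in proepicardial tissue, 486, 169 and 117 CPM in heart tubes, and 8.48 and 22.4 CPM in pericardial tissue. It was the member for which all proepicardium libraries lay below all heart tube libraries, while proepicardium library 2 lay between the pericardium libraries. The heme enzyme gene alas2 had 27.7, 13.4, 73.5 and 55.0 CPM in proepicardial tissue, 159, 78.8 and 41.6 CPM in heart tubes, and 7.22 and 6.43 CPM in pericardial tissue. Its order of libraries was that of hbae1.1, apart from the pericardium, where the exact Poisson 95% intervals of the libraries (6.09 to 8.50 CPM and 5.05 to 8.08 CPM) overlapped.

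The transcription factor gene gata1a was sparsely counted, with 5, 11, 27 and 24 counts in proepicardial tissue, 46, 37 and 31 counts in heart tubes, and 6 and 9 counts in pericardial tissue. On the CPM scale these were 0.282, 0.913, 1.66 and 2.65 in proepicardial tissue, 2.54, 2.56 and 2.53 in heart tubes, and 0.301 and 0.782 in pericardial tissue. Heart tube libraries, which spread 5.49-fold for hbae3, differed by 1.01-fold for gata1a, although the counting interval of a heart tube library alone ran at its narrowest from 1.86 to 3.39 CPM.

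**Figure D1:**
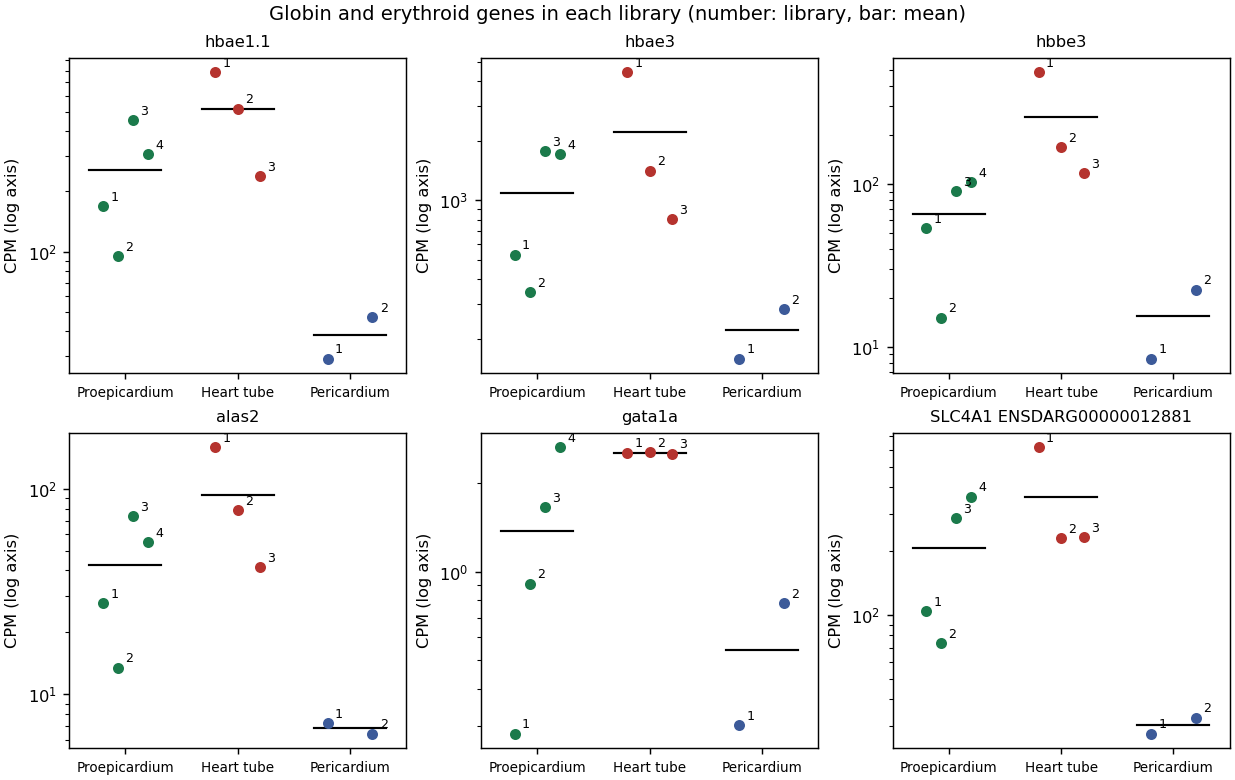
Level of each gene in each library in CPM on a log axis, for the 5 matched members and the SLC4A1 row ENSDARG00000012881; points are libraries, numbers their replicate number and bars the tissue mean. For all 6 genes proepicardium libraries 3 and 4 lie above libraries 1 and 2, and both pericardium libraries lie below all heart tube libraries.

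Members varied together between the proepicardium libraries, and 4 of them did so between the heart tube libraries. Proepicardium libraries 3 and 4 exceeded libraries 1 and 2 for all 5 members. The share of all genes that split these libraries in the same way was not counted, so whether this is particular to the members is not known. The highest library exceeded the lowest 4.76-fold for hbae1.1, 5.16-fold for hbae3, 6.80-fold for hbbe3, 5.47-fold for alas2 and 9.40-fold for gata1a. In the heart tube, library 1 was the highest and library 3 the lowest for hbae1.1, hbae3, hbbe3 and alas2. Heart tube library 1 also had the higher summed level of 9 epidermal genes, at 6751 CPM, against 868 and 843 CPM in heart tube libraries 2 and 3. Proepicardium libraries 3 and 4 are also those with the higher MT- share, and their summed level of 9 epidermal genes was 12921 and 30170 CPM, against 46610 and 46526 CPM in libraries 1 and 2. The part of these differences in the members' levels was not tested. In pooled tissue, fewer red cells and less RNA per red cell cannot be told apart.

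The heart tube was set against the pericardium to ask how far these tissues differ in red cell transcripts, and 4 of the 5 members were higher in heart tubes. The fold was 13.4 for hbae1.1, 10.0 for hbae3, 16.7 for hbbe3 and 13.6 for alas2. The edgeR quasi-likelihood test gave a log2 fold change of 3.75 ± 0.75 for hbae1.1 (SE, adjusted p = 0.00387) and 3.77 ± 0.80 for alas2 (adjusted p = 0.0055). For hbbe3 it was 4.06 ± 0.95 (edgeR adjusted p = 0.0103) and for hbae3 3.32 ± 0.94 (edgeR adjusted p = 0.0243). The estimate for gata1a was 2.25 ± 0.98 and did not pass (edgeR adjusted p = 0.113). Over all genes tested, 11% were called higher in heart tubes, and 27.1% were called in either direction. Libraries of the tissues did not overlap for any of the 5 members, which held for 25.2% of all genes in that direction and for 32.9% in the other. The median log2 fold change of the members was 3.75, beside -0.09 over all genes.

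These calls rested on both pericardium libraries. Without pericardium library 1, or without library 2, hbae1.1 was the single member called, and the count of called genes fell to 2315 or 2231 of the 4613. Estimates stayed positive in both cases, with 4.04 for alas2 (edgeR adjusted p = 0.0543) without library 1 and 3.77 (edgeR adjusted p = 0.0696) without library 2. The call for hbae3 was also lost with no filter on low counts (edgeR adjusted p = 0.0956) and with only these tissues in the fit (edgeR adjusted p = 0.0508).

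The proepicardium was set against the heart tube next, and 1 of the 5 members, hbbe3, was called, with a level 3.94-fold lower in proepicardial tissue. Its log2 fold change was -1.98 ± 0.66 (SE, edgeR adjusted p = 0.0463). The share of all genes called lower in proepicardial tissue was 12.7%, and 29.4% were called in either direction, so a count of 1 in 5 is near the background. For the rest the log2 fold change was -1.003 ± 0.52 for hbae1.1 (edgeR adjusted p = 0.178), -1.02 ± 0.68 for hbae3 (edgeR adjusted p = 0.291), -1.13 ± 0.56 for alas2 (edgeR adjusted p = 0.153) and -0.90 ± 0.73 for gata1a (edgeR adjusted p = 0.392). The libraries of the tissues were apart for hbbe3 and for no other member, and over all genes 16% were apart with the proepicardium lower and 19.8% with it higher. The median of the members was -1.02, beside 0.17 over all genes.

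The call for hbbe3 was lost when any of the 4 proepicardium libraries, either pericardium library or heart tube library 1 was left out; without heart tube library 1 its log2 fold change was -1.10 (edgeR adjusted p = 0.224). It was lost as well with no filter on low counts (edgeR adjusted p = 0.138) and with only these tissues in the fit (edgeR adjusted p = 0.0516). For hbae3 the estimate was 0.01 without that library (edgeR adjusted p = 0.993), which is the heart tube library with the high epidermal sum. Proepicardium libraries 3 and 4 were then both left out, a choice made after their values were seen. These libraries are the highest of that tissue for every member, so leaving them out lowers the members there by construction. In that fit 4706 genes were called, among them 4 members, lower in proepicardial tissue, and these calls cannot serve as a test. The estimates were -1.95 for hbae1.1, -2.33 for hbae3, -2.90 for hbbe3 and -2.17 for alas2.

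Against the pericardium, no member was called in proepicardial tissue, and no gene at all was: edgeR called 0% of the 17003 genes. At an unadjusted p under 0.05 there were 834 genes, or 4.91%, and 4 of the 5 members were among them. DESeq2 called 102 genes, including hbae1.1 (log2 fold change 2.76, DESeq2 adjusted p = 0.00678) and alas2 (2.66, DESeq2 adjusted p = 0.023). The edgeR log2 fold changes were 2.74 ± 0.69 for hbae1.1, 2.30 ± 0.87 for hbae3, 2.08 ± 0.84 for hbbe3, 2.63 ± 0.73 for alas2 and 1.35 ± 0.93 for gata1a, with edgeR adjusted p-values of 0.674, 0.954, 0.967, 0.741 and 0.971. All proepicardium libraries were above both pericardium libraries for hbae1.1, hbae3 and alas2, and 7.65% of all genes stood apart in that way, with 7.75% apart the other way. The median of the members was 2.30, beside -0.02 over all genes. Without proepicardium libraries 3 and 4 the estimate was 1.79 for hbae1.1, 0.99 for hbae3 and 1.60 for alas2. The 3 comparisons share libraries, so they are not independent of each other.

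**Figure D2:**
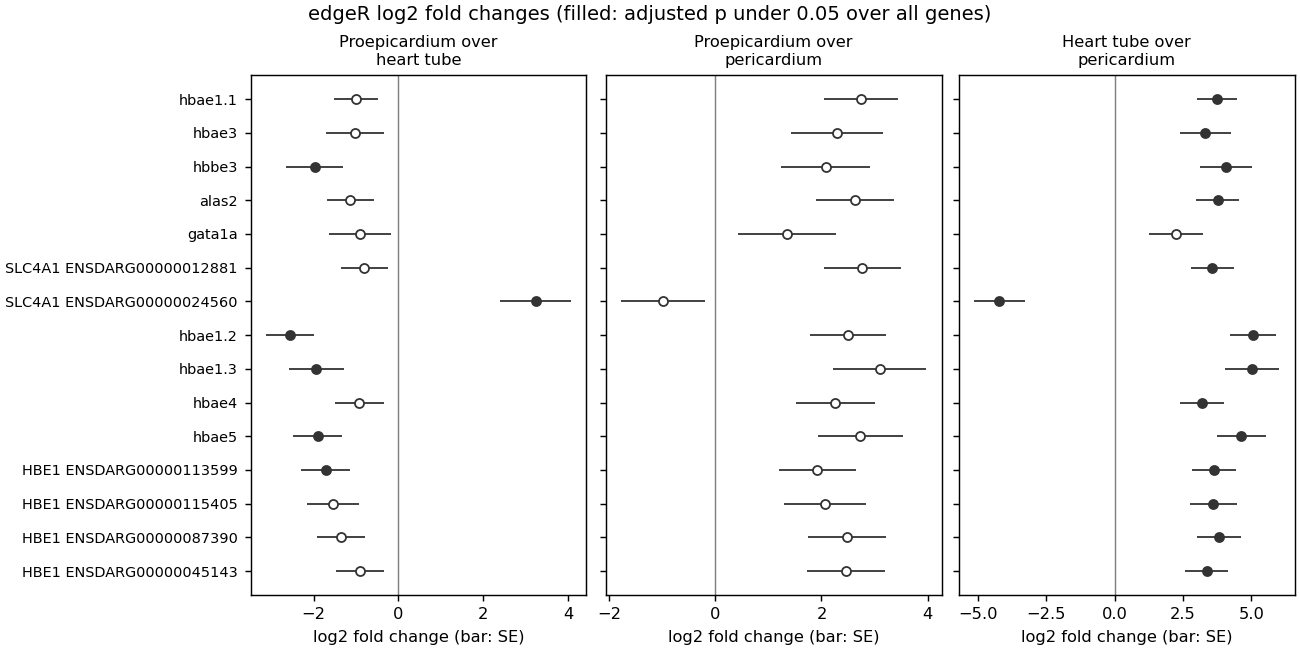
Log2 fold changes (points, bars are SE) of the members and of the other globin, HBE1 and SLC4A1 rows in the 3 comparisons; filled points have an edgeR adjusted p under 0.05 over all genes tested. All globin rows are filled for heart tube over pericardium, none is filled for proepicardium over pericardium, and SLC4A1 ENSDARG00000024560 lies on the opposite side of 0 from the other rows.

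Of the HBE1 rows, 4 were counted well enough to test. The row ENSDARG00000113599 averaged 716 ± 467 CPM in proepicardial tissue (n = 4), 2344 ± 1262 CPM in heart tubes (n = 3) and 189 ± 102 CPM in pericardial tissue (n = 2; errors are SD). All 4 were called higher in heart tubes than in pericardial tissue, beside 11% of all genes, with log2 fold changes of 3.37 to 3.83. Against the heart tube the proepicardium was called lower for ENSDARG00000113599 alone, beside 12.7% of all genes. Its log2 fold change was -1.71 ± 0.58 (edgeR adjusted p = 0.046), a call lost under 9 of 17 alternatives with an adjusted p of up to 0.185. Here and below, the 17 alternatives for proepicardium over heart tube include the fit without proepicardium libraries 3 and 4, chosen after values were seen. The other 3 HBE1 rows had at most 15 counts in a library.

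The SLC4A1 rows went opposite ways. Row ENSDARG00000012881 had 104, 73.7, 285 and 360 CPM in proepicardial tissue, 615, 230 and 232 CPM in heart tubes, and 27.5 and 32.8 CPM in pericardial tissue. Its pattern was like that of the globin members, except that heart tube libraries 2 and 3 were level. The row was 11.9-fold higher in heart tubes than in pericardial tissue (log2 fold change 3.57 ± 0.78, edgeR adjusted p = 0.00635). Row ENSDARG00000024560 had 18.4, 5.73, 4.42 and 8.51 CPM in proepicardial tissue, 2.27, 0.484 and 0.0815 CPM in heart tubes, and 15.2 and 21.6 CPM in pericardial tissue. It was higher in proepicardial tissue than in heart tubes (log2 fold change 3.23 ± 0.84, edgeR adjusted p = 0.0144) and lower in heart tubes than in pericardial tissue (-4.22 ± 0.93, edgeR adjusted p = 0.00677).

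Globin genes outside the members were the alpha genes hbae1.2, hbae1.3, hbae4 and hbae5, and 2 adult alpha genes. In the comparison of heart tube and pericardium all 4 tested embryonic genes were called higher in heart tubes, beside 11% of all genes. Among them hbae1.2 led with 5.06 ± 0.84 on the log2 scale (edgeR adjusted p = 0.00149). It averaged 73.3 ± 39.8 CPM in proepicardial tissue (n = 4), 433 ± 326 CPM in heart tubes (n = 3) and 13.03 ± 5.66 CPM in pericardial tissue (n = 2; errors are SD). In the comparison of proepicardium and heart tube 3 of the 4 were called lower in proepicardial tissue, beside 12.7% of all genes. They were hbae1.2 at -2.56 ± 0.56 (edgeR adjusted p = 0.0062), hbae5 at -1.91 ± 0.58 (edgeR adjusted p = 0.0286) and hbae1.3 at -1.93 ± 0.66 (edgeR adjusted p = 0.0485). The call for hbae1.2 held under all 17 alternatives, that for hbae5 under 12 and that for hbae1.3 under 6. Proepicardium libraries 3 and 4 are the highest of that tissue for hbae1.2 and hbae1.3, so the fit without them lowers both there by construction. For hbae4 the estimate was -0.92 ± 0.57 (edgeR adjusted p = 0.255). The adult genes hbaa1 and hbaa2 had 0 to 8 counts in a library and were not tested.

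Together the 9 rows with hba or hbb symbols held 0.0932%, 0.0618%, 0.305% and 0.255% of gene counts in proepicardial tissue, 0.768%, 0.317% and 0.145% in heart tubes, and 0.0244% and 0.0374% in pericardial tissue. The lowest proepicardium library (Wilson 95% interval 0.0603% to 0.0633%) was above the highest pericardium library (0.0363% to 0.0385%), while heart tube library 3 fell within the range of the proepicardium. Tissue means were 0.179% ± 0.119 in proepicardial tissue (n = 4), 0.410% ± 0.322 in heart tubes (n = 3) and 0.0309% ± 0.00915 in pericardial tissue (n = 2; errors are SD). With the HBE1 rows added they were 0.419%, 1.03% and 0.0790%. Intervals cover counting error only. The reads carry no molecular identifiers, so copies made in amplification count as separate reads, and the intervals may be too narrow even for that error. The spread within a tissue was far wider than the intervals. Without heart tube library 1 the heart tube mean was 0.231%.

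**Figure D3:**
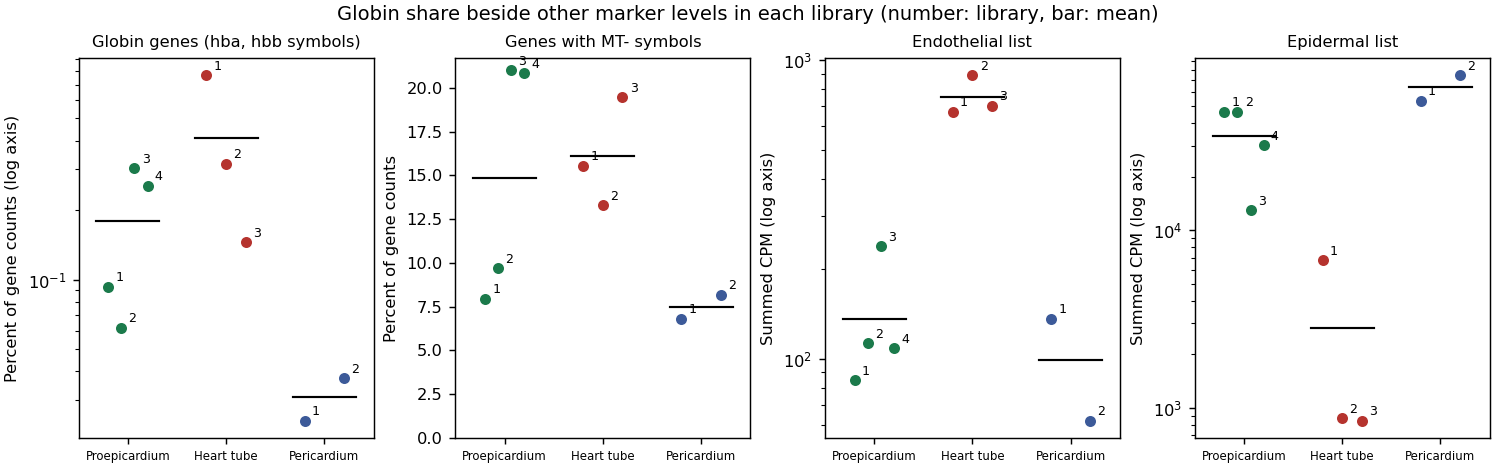
Percent of gene counts on globin symbols (log axis), percent on MT- symbols (linear axis from 0), and summed CPM of the endothelial and epidermal gene lists (log axes) in each library; bars are tissue means. Proepicardium libraries 3 and 4 have both the higher globin share and the higher MT- share of that tissue, and the endothelial sum is 672 to 890 CPM in heart tubes against 62.1 to 136 CPM in pericardial tissue.

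Gene lists of other cell types also differed between the tissues. The summed level of 15 endothelial genes was 84.6 to 238 CPM in proepicardial tissue, 672 to 890 CPM in heart tubes and 62.1 to 136 CPM in pericardial tissue, and erg was at 0 in proepicardial tissue. Of these genes 10 were called lower in proepicardial tissue than in heart tubes and 1 higher, beside 12.7% and 16.8% of all genes. In heart tubes 10 were called higher than in pericardial tissue and 1 lower, beside 11% and 16.1% of all genes. Summed epidermal genes stood at 12921 to 46610 CPM in proepicardial tissue, 843 to 6751 CPM in heart tubes and 53654 to 74692 CPM in pericardial tissue, with none of the 9 at 0. The part of these lists in the members' differences was not tested.

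The make-up of the globin counts, which does not depend on a library's total, was then read within each library. Counts of hbae1.2 per count of hbae1.1 were 0.323, 0.305, 0.264 and 0.294 in proepicardial tissue, 1.03, 0.568 and 0.843 in heart tubes, and 0.308 and 0.361 in pericardial tissue. Heart tube libraries lay above all others, and the proepicardium and pericardium overlapped. Counts of hbae1.3 per count of hbae1.1 were 0.664 to 0.937 in proepicardial tissue, 1.12 to 2.16 in heart tubes and 0.681 to 0.697 in pericardial tissue. As a share of the counts on hba and hbb symbols, without the HBE1 rows, hbae1.2 took 4.67% ± 0.995 in proepicardial tissue (n = 4), 10.5% ± 1.40 in heart tubes (n = 3) and 4.08% ± 0.178 in pericardial tissue (n = 2; errors are SD). With the HBE1 rows in the total, its shares were 1.95% ± 0.349, 3.99% ± 0.449 and 1.60% ± 0.0610 in these tissues, and heart tube libraries were still above all others.

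Among the 9 rows with hba or hbb symbols the largest share was that of hbae3, with 61.7% ± 4.70 in proepicardial tissue, 49.7% ± 3.56 in heart tubes and 69.9% ± 0.0390 in pericardial tissue (SD, n = 4, 3 and 2). Once the HBE1 rows entered the total, hbae3 held 26.002%, 19.01% and 27.4% on average. This was below the HBE1 row ENSDARG00000087390, which averaged 31.4%, 29.1% and 28.0% in the same tissues. In pericardial tissue the gap was less than the SD of that row (4.04%). In proepicardium library 4 and pericardium library 2, hbae3 had more counts than that row. In heart tubes hbae3 was on average also below the HBE1 row ENSDARG00000113599, which held 23.5%. Counts of hbae3 per count of hbbe3 were 9.94, 22.7, 19.6 and 16.6 in proepicardial tissue, 9.09, 8.38 and 6.87 in heart tubes, and 18.8 and 12.6 in pericardial tissue, so the heart tube was below every other library. Counts of hbae3 per count of gata1a were 1884, 376, 1068 and 644 in proepicardial tissue, 1736, 553 and 318 in heart tubes, and 530 and 362 in pericardial tissue, which overlap. These ratios are descriptions chosen over several globin pairs and carry no test, and reads shared between near-identical copies could move them.

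**Figure D4:**
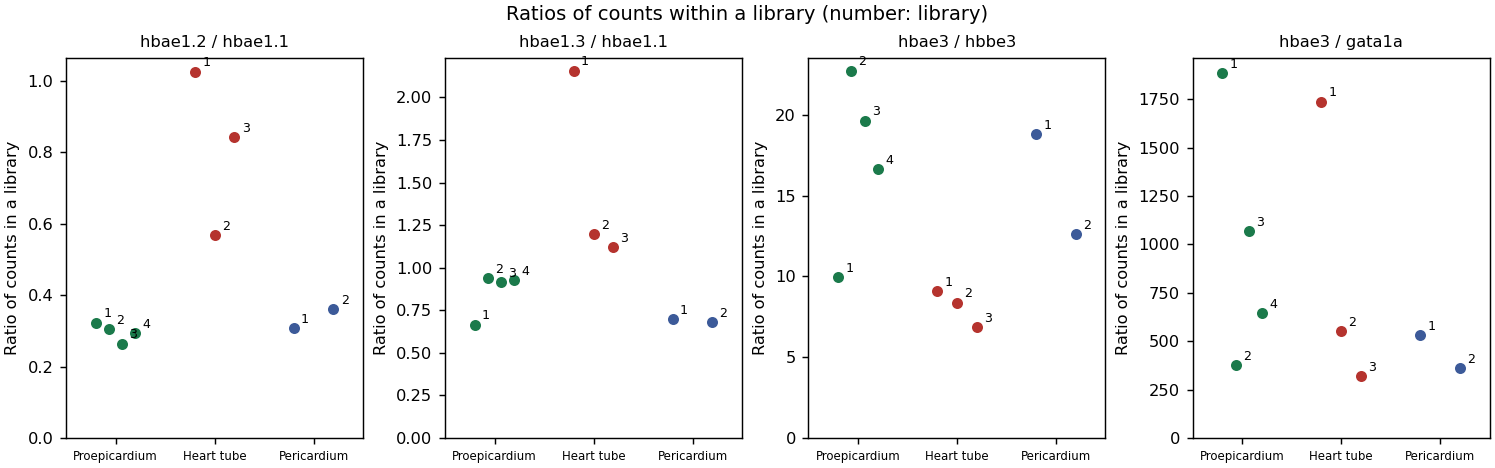
Ratio of the counts of 2 genes within each library for hbae1.2 over hbae1.1, hbae1.3 over hbae1.1, hbae3 over hbbe3 and hbae3 over gata1a; points are libraries and numbers their replicate number. The heart tube libraries lie above all others in the first and second panel and below all others in the third, and the tissues overlap in the fourth.

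Lists of other erythroid genes were read in the same fit. Of the proteins of the red cell membrane and its skeleton, 7 of the 9 tested genes were called higher in heart tubes than in pericardial tissue, none was called lower, and the list median was 3.38. Over all genes 11% were called higher and 16.1% lower there. The spectrin gene SPTB averaged 20.5 ± 12.9 CPM in proepicardial tissue (n = 4), 131 ± 37.4 CPM in heart tubes (n = 3) and 4.52 ± 1.72 CPM in pericardial tissue (n = 2; errors are SD), a log2 fold change of 4.86 ± 0.73 for heart tube over pericardium (edgeR adjusted p = 0.000734). The protein 4.1 gene epb41b was higher in heart tubes by 3.38 ± 0.75, the adducin gene add2 by 3.26 ± 0.65 and the blood group gene kel by 3.44 ± 1.11, all on the log2 scale over the pericardium (edgeR adjusted p = 0.00694, 0.00342 and 0.0385). Dematin (DMTN) and tropomodulin (TMOD1), which caps actin filaments in heart muscle as well as in red cells, were higher by 2.97 ± 0.92 and 4.04 ± 0.77 (edgeR adjusted p = 0.032 and 0.00274). The call for kel was lost under 7 of 16 alternatives and that for DMTN under 6. XK had 29, 18 and 24 counts in heart tubes and 0 counts in both other tissues, at least 29.4-fold and 16.8-fold higher in heart tubes than the 3 counts that either tissue as a whole could hold.

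In the comparison of proepicardium and heart tube 4 of these 9 genes were called lower in proepicardial tissue and none higher, with a list median of -1.78, beside 12.7% and 16.8% of all genes. They were SPTB (-2.68 ± 0.50, edgeR adjusted p = 0.00215), DMTN (-2.59 ± 0.70, edgeR adjusted p = 0.0158), TMOD1 (-3.62 ± 0.57, edgeR adjusted p = 0.000756) and XK. The estimates for epb41b, add2 and kel were -0.84, -0.29 and -0.84 and did not pass. XK had 0 counts in proepicardium libraries 3 and 4, where hbae3 stood at 1771 and 1708 CPM. In heart tube libraries 2 and 3, hbae3 stood at 1414 and 804 CPM, with 18 and 24 counts of XK. How far cells other than red cells carry the genes of the erythroid lists was not tested.

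Of 10 tested heme synthesis genes, 1 was called higher in heart tubes than in pericardial tissue (11% over all genes) and 2 were called lower in proepicardial tissue than in heart tubes (12.7% over all genes), counts near the background. The list medians were 0.97 and -0.73. ALAD, the enzyme after ALAS, averaged 20.4 ± 3.08 CPM in proepicardial tissue (n = 4), 39.9 ± 2.33 CPM in heart tubes (n = 3) and 19.9 ± 0.491 CPM in pericardial tissue (n = 2; errors are SD). Its log2 fold change was -0.97 ± 0.25 for proepicardium over heart tube (edgeR adjusted p = 0.013) and 1.00 ± 0.31 for heart tube over pericardium (edgeR adjusted p = 0.0317). The mitochondrial transporter ABCB10 was lower in proepicardial tissue than in heart tubes, at -1.22 ± 0.39 (edgeR adjusted p = 0.0333). The call for ABCB10 was lost under 7 of 17 alternatives, and that for ALAD in heart tube over pericardium under 7 of 16. For uros, a later enzyme of the pathway, the estimate for heart tube over pericardium was 1.31 ± 0.49 (edgeR adjusted p = 0.0708). ALAS1, the enzyme used outside the red cell lineage, stood at 15.1 ± 3.40, 16.4 ± 2.86 and 17.2 ± 1.66 CPM in proepicardium, heart tube and pericardium (SD, n = 4, 3 and 2).

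Among 10 iron genes, 2 were called higher and 1 lower in heart tubes than in pericardial tissue, with a median of 0.44. A count of 3 in 10 is near the 27.1% of all genes called in either direction. The transferrin receptor gene tfr1a, which serves iron uptake of zebrafish red cells, was higher by 2.73 ± 0.89 (edgeR adjusted p = 0.039). The glutaredoxin gene GLRX5, needed for iron-sulfur clusters, was higher by 2.27 ± 0.38 (edgeR adjusted p = 0.00119). ACO1, an iron regulatory protein, was lower, at -2.79 ± 0.49 (edgeR adjusted p = 0.00171). In the proepicardium against the heart tube, GLRX5 (-2.14 ± 0.29, edgeR adjusted p = 0.000301) and tfr1b (-1.29 ± 0.43, edgeR adjusted p = 0.0408) were lower and ACO1 (1.67 ± 0.43, edgeR adjusted p = 0.0127) was higher. Of the 10 iron genes, 2 were thus called lower and 1 higher there, beside 12.7% and 16.8% of all genes, which is near the background. The call for tfr1b was lost under 12 of 17 alternatives, with an adjusted p of up to 0.247, and that for tfr1a under 6 of 16; the calls for GLRX5 and ACO1 held under all.

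The lists of red cell enzymes and erythroid regulators split in both directions. The first list is broad, and not every gene in it codes for an enzyme. Of its 14 tested genes, 5 were called higher and 3 lower in heart tubes than in pericardial tissue. In proepicardial tissue 3 were called higher and 4 lower than in heart tubes. The background over all genes was 11% higher and 16.1% lower for the first comparison, and 16.8% higher and 12.7% lower for the second. The 3 lower genes of the first and the 3 higher ones of the second are thus near the background. The carbonic anhydrase gene cahz, a zebrafish red cell enzyme, averaged 82.1 ± 43.7 CPM in proepicardial tissue (n = 4), 218 ± 92.9 CPM in heart tubes (n = 3) and 13.7 ± 3.95 CPM in pericardial tissue (n = 2; errors are SD). Its log2 fold change was 3.99 ± 0.68 for heart tube over pericardium (edgeR adjusted p = 0.00145) and -1.41 ± 0.47 for proepicardium over heart tube (edgeR adjusted p = 0.0419), a call lost under 8 of 17 alternatives. BPGM, NT5C3A, HK1 and CREG1 were also higher in heart tubes than in pericardial tissue, by 1.77, 1.60, 2.07 and 2.69 (edgeR adjusted p = 0.0277, 0.00676, 0.00321 and 0.0161). BPGM, NT5C3A and HK1 were lower in proepicardial tissue than in heart tubes, at -1.98, -1.67 and -2.60 (edgeR adjusted p = 0.00457, 0.00123 and 0.000159). A second carbonic anhydrase gene, ca2, went the other way, with -6.45 ± 1.56 for heart tube over pericardium (edgeR adjusted p = 0.0135), as did HEBP2, with -3.18 ± 0.76 (edgeR adjusted p = 0.0109). Both ca2 and HEBP2 were higher in proepicardial tissue than in heart tubes, by 6.21 and 2.68 (edgeR adjusted p = 0.0122 and 0.0142).

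Of 16 tested regulators, 7 were called higher and 4 lower in heart tubes than in pericardial tissue, beside 11% and 16.1% of all genes. The erythroid Krüppel-like factor gene klf1 averaged 4.56 ± 3.19 CPM in proepicardial tissue (n = 4), 10.2 ± 4.98 CPM in heart tubes (n = 3) and 0.761 ± 0.154 CPM in pericardial tissue (n = 2; errors are SD), with 3.75 ± 0.89 for heart tube over pericardium (edgeR adjusted p = 0.00894). TAL1 and LMO2, partners in a blood and endothelial transcription complex, were higher by 3.13 ± 0.88 and 2.96 ± 0.69 (edgeR adjusted p = 0.0205 and 0.00807). ZFPM1, a GATA cofactor also used in the heart, was higher by 4.00 ± 0.63 (edgeR adjusted p = 0.000899). CBFA2T3, hdr and znfl2a were higher by 3.32, 3.47 and 1.76 (edgeR adjusted p = 0.0157, 0.00695 and 0.0222), and KLF3, klf17, bcl11ab and NFE2L1 were lower, at -2.66, -4.60, -3.61 and -3.01 (edgeR adjusted p = 0.0352, 0.00155, 0.00565 and 0.0338). Of these the call for NFE2L1 was lost under 9 of 16 alternatives and that for KLF3 under 6.

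In the proepicardium against the heart tube, 4 regulators were called lower, namely LMO2 (-1.63), ZFPM1 (-3.01), CBFA2T3 (-2.35) and znfl2a (-1.84), with edgeR adjusted p-values of 0.0304, 0.000568, 0.0171 and 0.00481. KLF3 (2.20), klf17 (3.78) and bcl11ab (3.37) were called higher there, with edgeR adjusted p-values of 0.0458, 0.00239 and 0.00488. The call for KLF3 was lost under 10 of 17 alternatives, with an adjusted p of up to 0.164, and that for LMO2 under 5, while those for klf17 and bcl11ab held under all 17. The shares of all genes called were 12.7% lower and 16.8% higher, so 3 of 16 called higher is near the background. The estimate for klf1 was -1.17 ± 0.61 (edgeR adjusted p = 0.175). Against the pericardium, edgeR called none of the genes of these lists in proepicardial tissue.

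**Figure D5:**
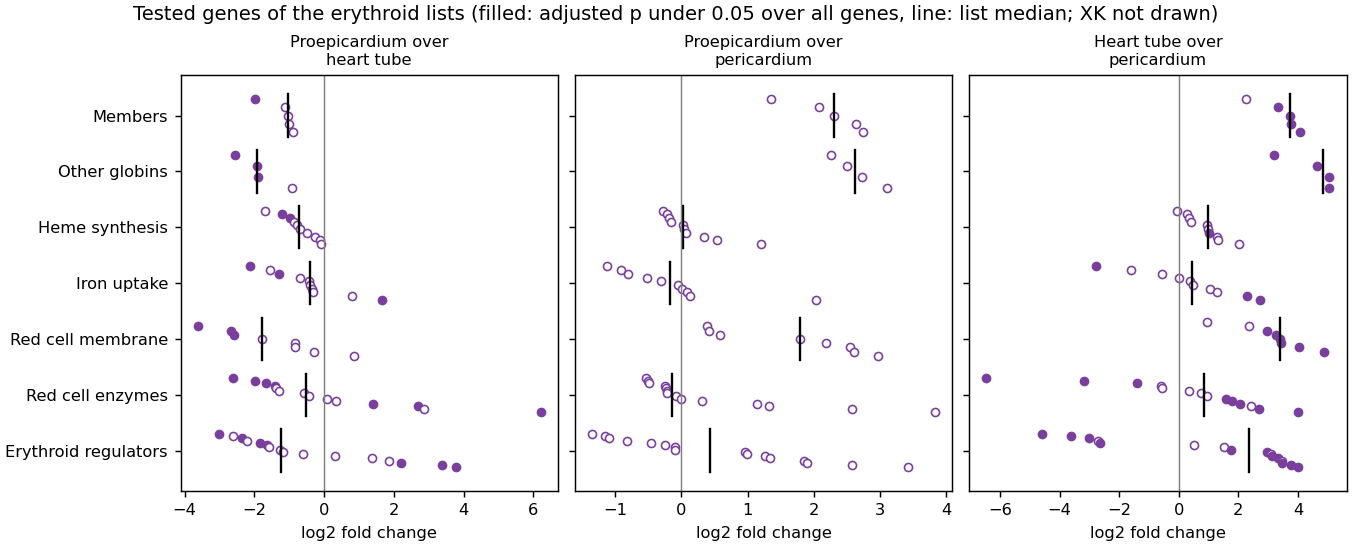
Log2 fold changes of the tested genes of each erythroid list in the 3 comparisons; points are genes, filled where the edgeR adjusted p over all genes is under 0.05, and lines are list medians (XK, at 0 counts in 2 tissues, is not drawn but counts in its list's median). Members, other globins and red cell membrane genes lie to the right of 0 for heart tube over pericardium. Genes of the enzyme and regulator lists lie on both sides.

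The genes most like the members in their pattern over the 9 libraries were sought among 9465 genes with a mean of at least 5 CPM, by the root mean square difference of centred log2 CPM from the members' mean profile. This median difference was 1.51 over all those genes and ranged from 0.26 to 0.77 for the members themselves. The 10 nearest genes lay between 0.20 and 0.35. They were the 4 tested HBE1 rows, klf1, hbae4, epb41b, the SLC4A1 row ENSDARG00000012881, nt5c2l1 and HHATL. The row for nt5c2l1 averaged 31.7 CPM in proepicardial tissue, 51.5 CPM in heart tubes and 5.77 CPM in pericardial tissue, and that for HHATL 6.79, 17.2 and 1.91 CPM in the same tissues. Leaving out any library, or a smaller prior count, kept 8 to 10 of the 10.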

How the data were processed

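RNA was sequenced from 9 libraries. The deposited table holds raw counts per Ensembl gene, and per the submitters' processing notes the tools included CASAVA 1.8, fastp, STAR, featureCounts and DESeq2, with the builds GRCz11 and danRer11; their roles, order and strand setting are not given in the sources used here. The authors' normalised table was not used. Columns were matched to samples through the description label; the series design text gives 3 proepicardium samples, the labels 4, and all 4 were used. A set of 16 construct rows (at most 0.0309% of counts) stayed out of library sizes and tests. Symbols named 29201 of 32520 genes, 5357 genes had no counts, and no sequence table or genome was used.

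The test was that of edgeR 4.0.16 (R 4.3.3) after filterByExpr with minimum counts of 10 and 15 (TMM, robust glmQLFit, glmQLFTest), with tissue as the single factor over all 9 libraries and Benjamini-Hochberg adjustment over 17003 genes; calls used 0.05. The common biological coefficient of variation was 0.528. The procedure was also run on simulated data with far fewer changed genes than were called in the comparisons with the heart tube. Its outcome is not reported here. Log2 CPM for profiles used a prior count of 2. Named were the members, all called genes of the erythroid lists (at least 3 a list) and the 10 nearest profiles; ALAS1, uncalled, was added after its values were seen. A called gene of the enzyme list is counted but not reported by name here. Members and lists were chosen with earlier results of these data known. Alternatives were DESeq2 1.42.0, limma-voom (limma 3.58.1), other size factors, no filter, a replicate block, fewer tissues and leaving out libraries. Tallies of alternatives for comparisons with the proepicardium include the unplanned fit without proepicardium libraries 3 and 4.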

Additional observations from a re-analysis of the deposited data

Results flagged for a closer look

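A construct row named dsRed, outside the gene comparisons, held up to 595 counts in a library, in proepicardium 3. Its level was 3.83, 2.99, 36.5 and 36.7 CPM in proepicardium libraries 1 to 4, 11.6, 15.3 and 14.8 CPM in heart tubes, and 3.66 and 3.04 CPM in pericardial tissue. A row named mCherry, also outside the gene comparisons, held 3938, 4042 and 3059 counts in heart tube libraries 1 to 3, or 218, 279 and 249 CPM, against 0 or 1 count in each of the other 6 libraries. The genotype in the labels names eGFP and mRFP, and neither dsRed nor mCherry. The proepicardium libraries with the higher dsRed level are those with the higher member levels. Among heart tubes, library 1 had the lowest dsRed level but the highest levels of hbae1.1, hbae3, hbbe3 and alas2. The relation between dsRed and the members was not tested.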

How the results depend on the processing

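Without the low-count filter, with the replicate block, or with only the 2 tissues compared, 0 members were called for proepicardium against heart tube. Leaving out 1 library at a time gave 0 to 1 called members and 3919 to 4875 called genes there, 1 to 4 members and 2231 to 4750 genes for heart tube against pericardium, and 0 genes for proepicardium against pericardium. Without proepicardium 3 and 4, the highest of their tissue for every member, 4 members and 4706 genes in all were called against the heart tube. That choice lowers the members in proepicardial tissue by construction. For proepicardium against pericardium, 9 genes were called with no filter and 102 genes and 2 members with DESeq2. Whether replicate numbers pair the libraries is not known. In the column labels, proepicardium 3 and 4 and heart tube 3 carry higher numbers than their replicate numbers, and no pericardium library does. They are also the libraries with the highest share of counts on MT- symbols. What the label numbers stand for is not given in the sources used here. Deviations of same-numbered libraries from their tissue mean correlated at -0.02 to 0.13 over 7 pairs, and those of differently numbered libraries at -0.16 to 0.16. The deviations of the 2 pericardium libraries mirror each other, so these values cannot exclude a pairing. With the replicate block, hbbe3 (proepicardium over heart tube, edgeR adjusted p = 0.0916) and hbae3 (heart tube over pericardium, edgeR adjusted p = 0.081) lost their calls. The estimate for hbae3 in proepicardium over heart tube ranged from -1.43 to 0.00859 with 1 library left out, and the positive value came without heart tube 1. Leaving out 1 library moved the mean globin share within 0.137% to 0.218% in proepicardial tissue, 0.231% to 0.543% in heart tubes and 0.0244% to 0.0374% in pericardial tissue, and adding HBE1 rows gave 0.419%, 1.03% and 0.0790%, a choice made after seeing the data, as was adding them to the make-up of the globin counts. DESeq2 also called gata1a in heart tube over pericardium (DESeq2 adjusted p = 0.0441). Of the alternative values of members, 224 kept direction and side of the threshold, 19 lost a call, 6 gained one and 1 reversed. Calls gained for hbae1.1, hbae3 and alas2 in proepicardium over heart tube came from the fit without proepicardium 3 and 4 and are no test. The other gains came with DESeq2. Of the alternative values of other named genes, 171 lost a call and none reversed. The causes were not tested. The gata1a row had at most 46 counts in a library, and its adjusted p for heart tube over pericardium ranged from 0.0441 to 0.425 over 16 alternatives.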

Other observations

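White cell, thrombocyte and liver genes were read in the same fit, in which 11% of all genes were called higher in heart tubes than in pericardial tissue and 16.8% higher in proepicardial tissue than in heart tubes. Of 7 tested macrophage and neutrophil genes, 2 were called higher in heart tubes than in pericardial tissue (SPI1 and marco), and 1, the lysozyme gene lyz, was called higher in proepicardial tissue than in heart tubes. It averaged 67.6 ± 44.3 CPM in proepicardial tissue (n = 4), 14.3 ± 3.93 CPM in heart tubes (n = 3) and 7.41 ± 5.56 CPM in pericardial tissue (n = 2; errors are SD), a log2 fold change of 2.24 ± 0.54 for proepicardium over heart tube (edgeR adjusted p = 0.00911). A count of 1 in 7 is near the background, and 5 of the 7 estimates for proepicardium over heart tube were negative. Of 3 tested thrombocyte genes, 2 were called higher in heart tubes than in pericardial tissue: GP1BB by 4.15 ± 1.27 and f13a1b by 2.07 ± 0.67 on the log2 scale (edgeR adjusted p = 0.0301 and 0.0391). The f13a1b gene was lower in proepicardial tissue than in heart tubes, at -1.94 ± 0.52 (edgeR adjusted p = 0.0157).

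Of 6 tested liver genes, 5 were called higher in proepicardial tissue than in heart tubes, among them apoa2 with 149 ± 64.3 CPM in proepicardial tissue (n = 4), 53.0 ± 17.3 CPM in heart tubes (n = 3) and 14.5 ± 2.36 CPM in pericardial tissue (n = 2; errors are SD). The FGB, apobb.1, serpina1 and RBP4 genes were the other 4. The summed level of the 8 liver genes was 343 to 2300 CPM in proepicardial tissue, 82.2 to 155 CPM in heart tubes and 2160 to 2526 CPM in pericardial tissue, an order that differs from that of apoa2. Most of the pericardial sum was RBP4, a retinol carrier, with 1013 ± 972 CPM in proepicardial tissue (n = 4), 2.51 ± 1.61 CPM in heart tubes (n = 3) and 2310 ± 271 CPM in pericardial tissue (n = 2; errors are SD). It was lower in heart tubes than in pericardial tissue, at -9.83 ± 1.34 on the log2 scale (edgeR adjusted p = 0.000796), where apoa2 and apobb.1 were higher, by 1.87 and 1.63 (edgeR adjusted p = 0.0127 and 0.0375).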
